A study of Mus musculus with 10 samples.

Results

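Neural cells hold to each other through adhesion molecules of the immunoglobulin superfamily, and the L1, NCAM and contactin families are the best known of these on growing axons. The transcripts of 10 such genes, chosen by symbol, were followed in mouse dentate gyrus that had received Sox11 from a virus: the L1 family genes L1cam, Chl1, Nrcam and Nfasc, the NCAM genes Ncam1 and Ncam2, and the contactin genes Cntn1, Cntn2, Cntn3 and Cntn4. Each of the 10 symbols matched 1 of the 48526 gene identifiers measured. All 10 averaged more than 10 normalized counts, the minimum for a test, and so were among the 17007 genes tested. A normalized count is a read count per gene divided by a scaling factor for the library.

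Proteins of the L1 family cross the membrane, bind partners on neighbouring cells and tie to ankyrin and the spectrin skeleton inside. NCAM proteins also bind across cells, and Ncam1 carries long chains of polysialic acid that loosen adhesion. In the adult dentate gyrus polysialylated NCAM is known as a mark of young granule neurons and of their axons, the mossy fibres. Contactins are held by a lipid anchor and pair in the same membrane with proteins of the Caspr family, encoded by the Cntnap genes.

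The dentate gyrus, which holds the granule neurons of the hippocampus, was dissected from C57Bl/6 mice aged 8 weeks. Both sides had been injected with 1 µl of adeno-associated virus of serotype 9. The virus carried Sox11, a transcription factor of newborn neurons, in 5 libraries and GFP (green fluorescent protein) in the 5 control libraries. The comparison asks how these transcripts differ when Sox11 is supplied. Every group thus received virus. Each library came from 1 of 10 mice, per the series' design. Neither the promoter of the viral genes nor the cell types reached are stated in the sources used here. The tissue was sequenced whole, so fewer cells of a type and less RNA per cell cannot be told apart.

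Libraries carry the names of their columns, GFP 1, 3, 4, 5 and 6 for the controls and Sox11 1, 2, 3, 6 and 7. They held 45100154 to 68769808 recovered reads. The Sox11 gene was at 1364 to 1634 normalized counts in controls and 9803 to 20434 after Sox11 virus, where reads of the viral and the mouse copy are counted together. Prox1, which defines granule neurons, was at 13354 to 22834 normalized counts in all libraries. GFP 3 stood apart by its choroid plexus RNA: Ttr, the transthyretin gene, was at 345861 normalized counts there and at 34.9 to 1312 in the others. Oligodendrocyte markers, summed over 11 genes, spanned 82321 to 153925 normalized counts in controls and 71703 to 172587 with Sox11. CA1 pyramidal markers, summed over 6 genes, spanned 5824 to 18910 and 7091 to 19404. Neither list had a member that passed the test.

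The NCAM genes were the members that changed, Ncam1 upward and Ncam2 downward. Of the 10 genes, 1 rose, 1 fell and 8 did not pass limma's test, adjusted over all genes with a threshold of 0.05. Among all genes tested 19.0% changed, 9.65% higher and 9.36% lower, so the share of family members that changed was near the background. The median log2 fold change, Sox11 minus GFP, was 0.04 over the 10 genes and -0.01 over all genes tested. Log2 fold changes are on the scale log2(normalized count + 1).

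**Figure D1:**
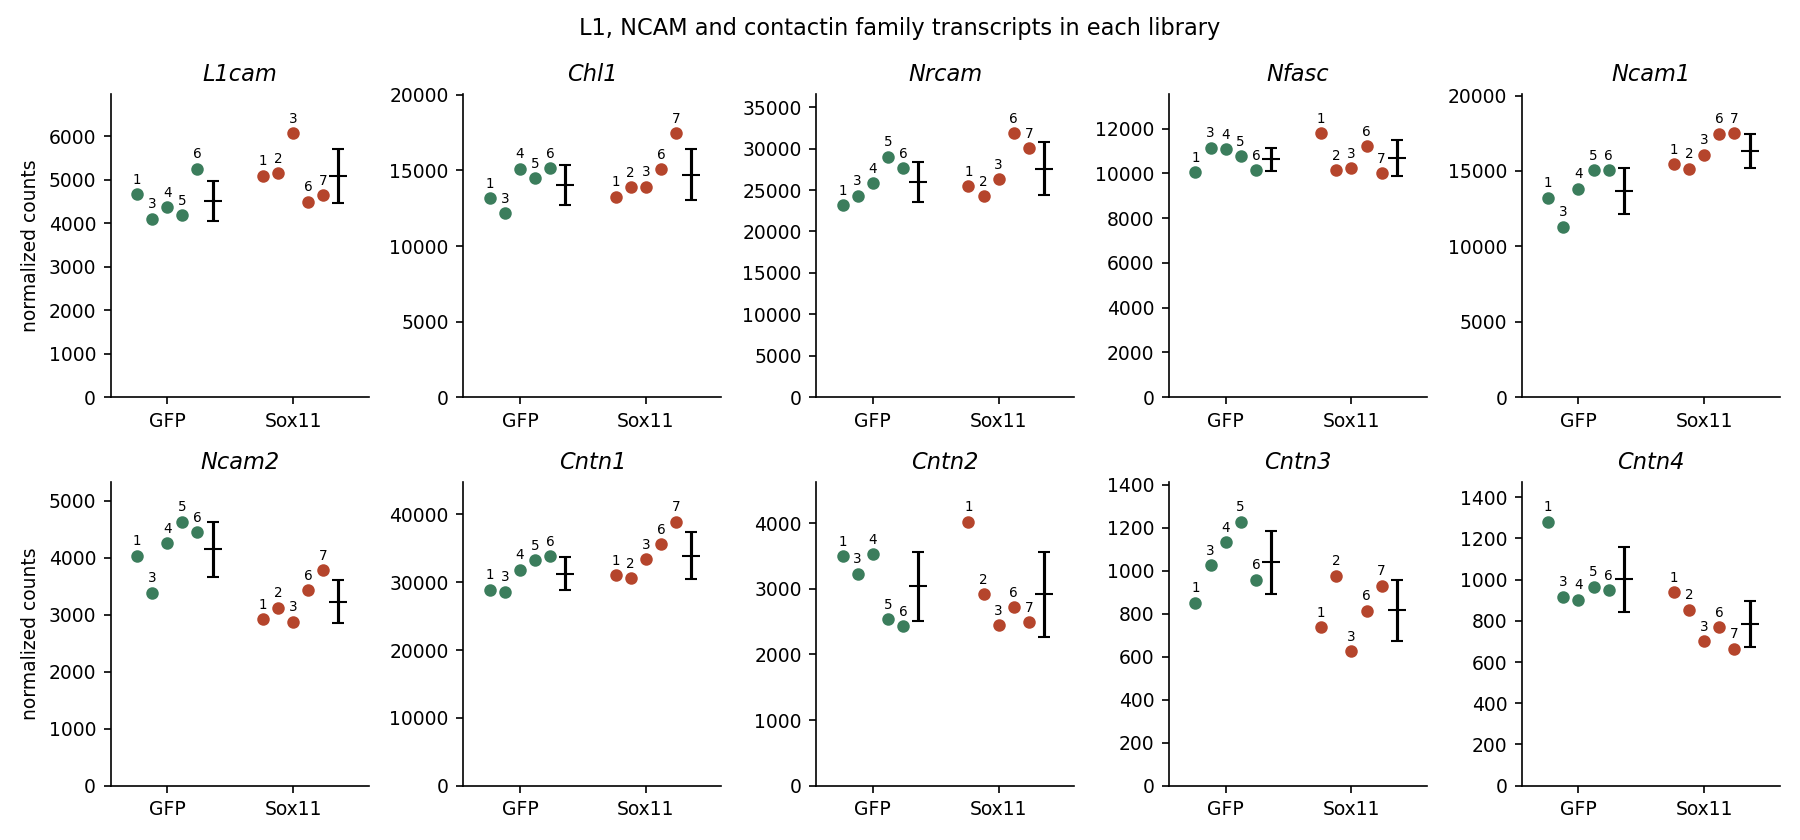
Normalized counts (vertical axes, from 0) of the 10 genes in each GFP library (green) and Sox11 library (red), with the library number above each point and the mean and SD of the group in black (n = 5 each). The Ncam1 points of the Sox11 group, from 15141 to 17512, lie above all GFP points, while the groups overlap in the other 9 panels.

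The levels of the 10 genes differed within each family. Per kilobase of exon, the control libraries held most Cntn1 (3315 ± 256 normalized counts per kilobase, mean ± SD, n = 5). Nrcam followed at 1945 ± 178, Ncam1 at 1580 ± 178, Chl1 at 1140 ± 107, Nfasc at 752 ± 36.4 and L1cam at 614 ± 63.4. The lowest levels were those of Ncam2 at 367 ± 42.5, Cntn2 at 327 ± 56.5, Cntn3 at 154 ± 21.8 and Cntn4 at 118 ± 18.6 normalized counts per kilobase. In this order the ranges over the GFP libraries overlapped for Nrcam and Ncam1, for Nfasc and L1cam, for Ncam2 and Cntn2, and for Cntn3 and Cntn4, and did not overlap for the other neighbours. Each gene's exonic bases overlapped those of other genes by at most 4.81% (Ncam1, opposite strand). At least 97.5% of each gene's 31-base words were found in no other gene's transcripts.

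Ncam1 (ENSMUSG00000039542, chromosome 9, 49502136 to 49798925, minus strand, GRCm38) encodes the neural cell adhesion molecule that carries polysialic acid. It was at 13234, 11308, 13823, 15038 and 15035 normalized counts in GFP 1, 3, 4, 5 and 6. In Sox11 1, 2, 3, 6 and 7 it was at 15457, 15141, 16066, 17479 and 17512. Every Sox11 library was above every GFP library, by a narrow margin at Sox11 2, and GFP 3 was the lowest of all. The groups did not overlap for 15.9% of all genes tested, 8.63% with Sox11 higher and 7.29% with Sox11 lower. The means were 13688 ± 1543 and 16331 ± 1114 normalized counts (SD, n = 5 each). Ncam1 rose by 0.26 on the log2 scale (SE 0.08, limma adjusted p = 0.0439).

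Ncam2 (ENSMUSG00000022762, chromosome 16, 81200697 to 81626828, plus strand) encodes a paralog known from the axons of olfactory neurons. It was at 4038, 3391, 4259, 4638 and 4448 normalized counts in GFP 1, 3, 4, 5 and 6. The Sox11 libraries 1, 2, 3, 6 and 7 held 2919, 3127, 2882, 3435 and 3788. All 5 Sox11 libraries were below the GFP mean, and the groups overlapped because GFP 3 was lower than Sox11 6 and Sox11 7. Ncam2 fell from 4155 ± 481 to 3230 ± 382 normalized counts (SD, n = 5 each), with a log2 difference of -0.36 (SE 0.10, limma adjusted p = 0.0225).

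Set against each other, the NCAM genes separated the groups more clearly than either did alone. The ratio of Ncam1 to Ncam2 normalized counts was 3.28, 3.33, 3.25, 3.24 and 3.38 in GFP 1, 3, 4, 5 and 6, and 5.30, 4.84, 5.58, 5.09 and 4.62 in Sox11 1, 2, 3, 6 and 7. Its mean was 3.30 ± 0.0599 for controls and 5.09 ± 0.373 with Sox11 (SD, n = 5 each), a difference of 1.79 that exceeded the SD of either group. GFP 3, lowest for each gene alone, lay within the GFP range for the ratio. The ratio was chosen after its values were seen and is a description, with no test.

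**Figure D2:**
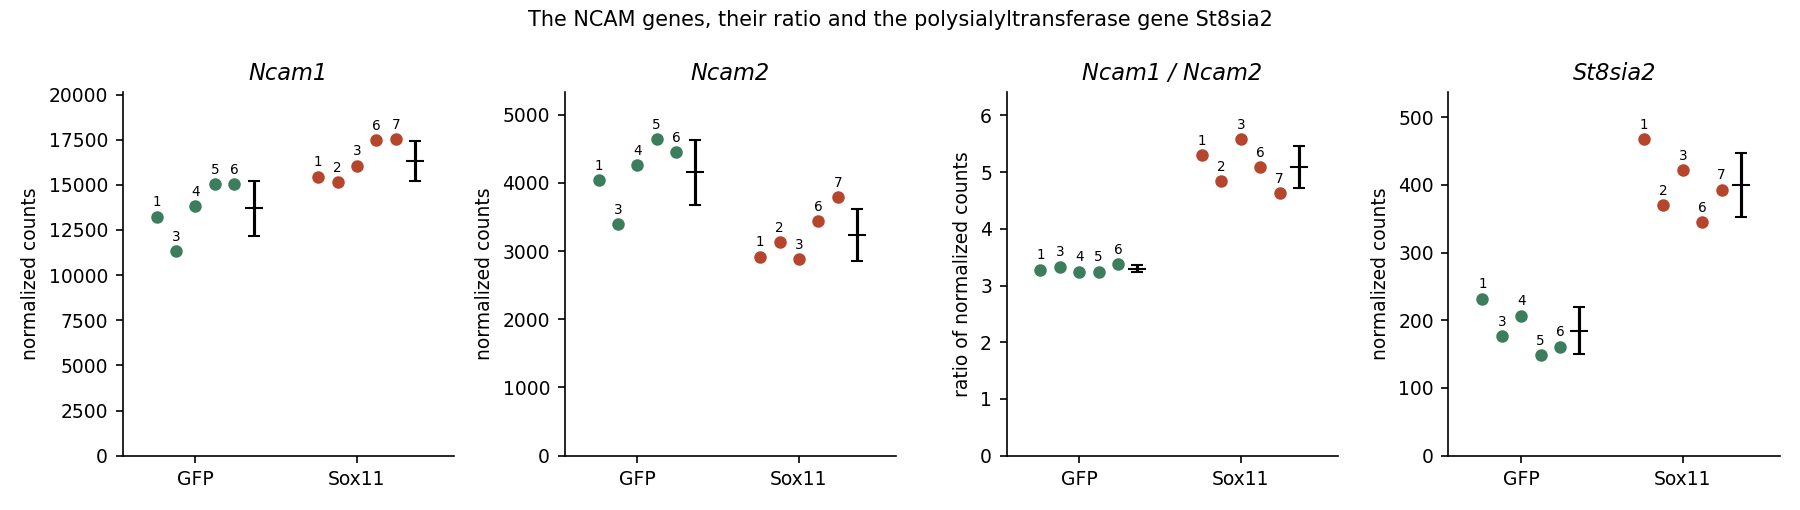
Normalized counts of Ncam1, Ncam2 and St8sia2 and the ratio of Ncam1 to Ncam2 (vertical axes, from 0) in each library, numbered as in the deposited table, with mean and SD in black (n = 5 each). The ratio holds to 3.24 to 3.38 in controls and lies at 4.62 to 5.58 with Sox11.

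The calls of both NCAM genes were close to the threshold. Ncam1 no longer passed without any 1 of GFP libraries 1, 3 and 4 and Sox11 libraries 1, 3, 6 and 7 (adjusted p from 0.0556 to 0.0944), with log2 fold changes of 0.19 to 0.30 over all 10 libraries left out. Ncam2 no longer passed without any 1 of GFP libraries 4, 5 and 6 and Sox11 libraries 1 and 3 (adjusted p from 0.0536 to 0.0563), with log2 fold changes of -0.43 to -0.32. Without GFP 3, which stood apart, Ncam1 rose by 0.19 without passing (adjusted p = 0.0556) and Ncam2 fell by 0.43 (adjusted p = 0.00449), where 19.4% of genes changed, 9.37% higher and 10.1% lower. Ncam1 also did not pass with no filter on low values (adjusted p = 0.0529) or in limma without trend and robust (0.0673), where Ncam2 did (0.0236 and 0.0401). On recovered reads, edgeR gave adjusted p-values of 0.0430 and 0.0243 for Ncam1 and Ncam2, and DESeq2 gave 0.0127 and 0.00280. Over all genes edgeR called 10.2% higher and 8.88% lower, and DESeq2 called 23.7%, 11.8% higher and 11.9% lower. Within the libraries numbered 1 to 3 their log2 fold changes were 0.35 and -0.32, and within those numbered 4 to 7 they were 0.26 and -0.30. Neither gene passed in the former (adjusted p of 0.0557 and 0.0856), where 5.64% of all genes did, 3.28% higher and 2.36% lower. Both passed in the latter (0.0261 and 0.0208), where 15.6% did, 7.48% higher and 8.10% lower. With this division as a covariate in limma, the log2 fold changes were 0.30 and -0.31 (adjusted p of 0.00185 and 0.00271). There 23.8% of all genes passed, 12.2% higher and 11.6% lower. The division is not named in the labels and was chosen with earlier results of these data known, so these fits are no independent check.

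The enzyme gene that makes polysialic acid on NCAM during development, St8sia2 (ENSMUSG00000025789, chromosome 7, 73939119 to 74013690, minus strand), had the largest difference of the 46 partner genes listed by role. It was at 232, 176, 207, 148 and 161 normalized counts in GFP 1, 3, 4, 5 and 6 and at 467, 370.2, 422, 345 and 393 in Sox11 1, 2, 3, 6 and 7. The groups did not overlap, and the lowest Sox11 library was well above the highest GFP library. St8sia2 rose by 1.12 on the log2 scale (SE 0.13, limma adjusted p = 0.000278), and kept its call in each of the 21 alternatives tried. St8sia4, the polysialyltransferase of the adult brain, stood at 1168 ± 110 and 1165 ± 169 normalized counts (SD, n = 5 each), with a log2 difference of -0.01 with a 95% interval of -0.23 to 0.21. The ratio of St8sia2 to St8sia4 was 0.115 to 0.208 in controls and 0.252 to 0.438 with Sox11, a description chosen after the values were seen.

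Fyn, the Src-family kinase that NCAM and contactins signal through, rose from 8631 ± 533 to 10644 ± 613 normalized counts (SD, n = 5 each), by 0.30 on the log2 scale (SE 0.06, limma adjusted p = 0.00367). Ncan, the chondroitin sulfate proteoglycan neurocan, which binds NCAM and L1, rose from 11927 ± 1199 to 17173 ± 1152, by 0.53 (SE 0.07, limma adjusted p = 0.000745). Its relative Bcan, brevican, rose by 0.23 (SE 0.05), a call lost within either division of the libraries by number. In each of these 3 genes, named because they passed the test, the Sox11 libraries lay above all GFP libraries. The same held for 8.63% of all genes tested. Fgfr1, a growth factor receptor that NCAM activates, was at 7378 ± 534 and 7576 ± 636 normalized counts and did not pass (log2 fold change 0.04, 95% interval -0.11 to 0.19).

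Some markers of young neurons rose beside Ncam1 and St8sia2. Of 10 immature neuron markers 6 rose (Dcx, Tubb3, Stmn1, Dpysl3, Dpysl5 and Draxin) and none fell, where 9.65% of all genes tested rose and 9.36% fell. The other 4, Calb2, Neurod1, Igfbpl1 and Elavl4, did not pass. The summed level of the 10 was 26127 to 33975 normalized counts in controls and 54265 to 72001 with Sox11. None of the 10 was at 0 in any library. Of 8 astrocyte markers 3 rose and none fell, with summed levels of 265436 to 345713 and 292326 to 373078 normalized counts. Of 10 interneuron markers 3 fell and none rose, at 55474 to 67299 and 48036 to 60636. Of 7 mossy cell markers 3 fell, of 9 microglia markers 3 rose, and of 9 granule neuron markers 2 rose and 2 fell, to be read against the same shares of all genes. The marker lists were chosen with earlier results of these data known, so these counts are a description and no independent support. The part of these cell types in the NCAM and partner results was not tested.

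Promoter windows are shown for Ncam2, which fell, for St8sia2, which rose most among the partners, and for Chl1 as a member that holds a Sox-type motif. Each window runs from 250 bases before to 50 bases after a transcript start (RefSeq, GRCm38.p6). Capitals mark ACAAAG or ACAATG on either strand (CTTTGT or CATTGT when read on the other), short words of the kind that Sox proteins bind.
Ncam2, plus strand, chr16:81200447-81200746: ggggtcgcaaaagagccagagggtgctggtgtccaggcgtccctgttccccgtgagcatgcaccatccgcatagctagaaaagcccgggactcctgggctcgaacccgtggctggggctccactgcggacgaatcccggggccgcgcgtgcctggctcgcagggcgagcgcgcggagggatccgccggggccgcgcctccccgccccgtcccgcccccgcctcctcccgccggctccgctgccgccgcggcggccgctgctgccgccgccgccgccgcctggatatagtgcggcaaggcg
St8sia2, minus strand, chr7:74013633-74013932: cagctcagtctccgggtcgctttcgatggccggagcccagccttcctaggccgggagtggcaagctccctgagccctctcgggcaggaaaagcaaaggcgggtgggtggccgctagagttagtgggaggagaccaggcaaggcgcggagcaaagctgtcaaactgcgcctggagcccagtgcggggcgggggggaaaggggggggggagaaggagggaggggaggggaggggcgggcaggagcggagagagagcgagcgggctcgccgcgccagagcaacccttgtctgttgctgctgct
Chl1, plus strand, chr6:103510626-103510925: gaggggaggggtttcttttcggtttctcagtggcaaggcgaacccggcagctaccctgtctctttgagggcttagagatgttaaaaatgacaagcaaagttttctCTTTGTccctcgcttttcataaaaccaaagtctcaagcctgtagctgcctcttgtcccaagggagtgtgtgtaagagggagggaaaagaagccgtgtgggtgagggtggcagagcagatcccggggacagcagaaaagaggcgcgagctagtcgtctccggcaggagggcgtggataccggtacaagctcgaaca

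With 1 match in the 3 windows, no match overlaps another. Neither the Ncam2 nor the St8sia2 window holds one, and the Chl1 window holds CTTTGT from position -145, counted from the start site. Of the 10 genes, 9 matched the RefSeq table by symbol, all but Ncam1. They have 14 windows, of which 2 hold a word, 1 of Chl1 and 1 of Cntn1, while 28.6% of all 32851 windows in the table hold at least 1. A match is a description of the sequence and not a site.

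The L1 family showed no change that passed the test. L1cam (chromosome X, 73853778 to 73896105), the founding member, which supports axon growth and bundling, was at 4669, 4098, 4366, 4184 and 5249 normalized counts in GFP 1, 3, 4, 5 and 6. It was at 5090, 5150, 6069, 4492 and 4640 in Sox11 1, 2, 3, 6 and 7. The groups overlapped, and Sox11 3 was the highest library. The log2 fold change was 0.17 (95% interval -0.02 to 0.37, limma adjusted p = 0.216).

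Chl1 (chromosome 6, 103510586 to 103750211), the close homolog of L1, was at 12165 to 15162 normalized counts in controls and 13271 to 17473 with Sox11. Nrcam (chromosome 12, 44328885 to 44601964), which serves in axon guidance and at nodes of Ranvier, was at 23140 to 29015 and 24251 to 31874. Nfasc (chromosome 1, 132564690 to 132741797), the neurofascin of the axon initial segment and of myelin contacts, was at 10053 to 11142 and 10012 to 11795. The groups overlapped in all 3. Their log2 fold changes were 0.07, 0.08 and 0.00, with 95% intervals of -0.12 to 0.26, -0.11 to 0.27 and -0.12 to 0.13. Nfasc thus had the narrowest interval of the 10 genes, with an SD of 4.84% of the mean in the GFP libraries.

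None of the 4 contactin genes passed the test, and their values ran from above 0 for Cntn1 to below 0 for Cntn3 and Cntn4. Cntn1 (chromosome 15, 92051165 to 92341967), a contactin of axons and of the paranodal junction, was at 28905, 28595, 31816, 33244 and 33802 normalized counts in GFP 1, 3, 4, 5 and 6. In Sox11 1, 2, 3, 6 and 7 it was at 31011, 30613, 33390, 35614 and 38931. The groups overlapped, and within each group the libraries numbered 4 to 7 held more than those numbered 1 to 3, with Sox11 3 the highest of the latter. The log2 fold change was 0.11 (SE 0.08, limma adjusted p = 0.353). With the division of the libraries into numbers 1 to 3 and 4 to 7 as a covariate, it was 0.16 and passed (adjusted p = 0.0213), where 23.8% of all genes did, 12.2% higher and 11.6% lower. That division is not a batch named in the labels. It was chosen with earlier results of these data known, so the pass of Cntn1 under it is a description.

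Cntn3 and Cntn4 are contactins of restricted neuron groups, and Cntn4 is known for axon targeting in the olfactory and visual systems. Cntn4 (chromosome 6, 105677660 to 106699310) was at 1281, 917, 903, 965 and 947 normalized counts in GFP 1, 3, 4, 5 and 6. It was at 940, 855, 700.4, 770 and 665 in Sox11 1, 2, 3, 6 and 7. In Sox11 1 alone it reached the range of the GFP libraries, of which GFP 1 was far above the others. The log2 fold change was -0.35 (95% interval -0.60 to -0.10, limma adjusted p = 0.0566). It passed without Sox11 1 (adjusted p = 0.0322), where 15.3% of genes did, 8.01% higher and 7.30% lower. It also passed in DESeq2 (0.0306), with the division as a covariate (0.0200) and within the libraries numbered 4 to 7 (0.0225). Of all genes, 23.7%, 23.8% and 15.6% passed in these 3 settings. In the other 17 of the 21 alternatives Cntn4 did not pass, among them edgeR (adjusted p = 0.0701).

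Cntn3 (chromosome 6, 102162655 to 102573101) was at 851, 1026, 1133, 1228 and 959 normalized counts in GFP 1, 3, 4, 5 and 6 and at 736, 976, 626, 813 and 929 in Sox11 1, 2, 3, 6 and 7. The groups overlapped, with 3 Sox11 libraries below the lowest GFP library. The log2 fold change was -0.36 (95% interval -0.64 to -0.07, limma adjusted p = 0.0845), and of the 21 alternatives it passed only without GFP 1 (adjusted p = 0.0495), where 16.6% of genes did, 8.11% higher and 8.47% lower. Of the further contactins, Cntn6 was at 337 ± 60.8 and 271 ± 26.3 normalized counts (SD, n = 5 each) and did not pass, with a log2 fold change of -0.30 (95% interval -0.58 to -0.01). Cntn5 was at 375 ± 64.3 and 370.3 ± 61.9, with a log2 fold change of -0.01 (95% interval -0.33 to 0.30).

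Several of these genes are neighbours on the chromosome. Cntn3, Chl1, Cntn6 and Cntn4 follow each other on chromosome 6 with no other protein-coding gene between them in the RefSeq annotation, at gaps of 937, 743 and 814 kilobases. In that order their log2 fold changes were -0.36, 0.07, -0.30 and -0.35. Cntn2 and Nfasc lie 21.4 kilobases apart on chromosome 1, with log2 fold changes of -0.07 and 0.00.

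Cntn2 (ENSMUSG00000053024, chromosome 1, 132509427 to 132543256), which encodes the axonal glycoprotein TAG-1 made by growing axons and by myelinating glia, varied most from library to library. It was at 3494, 3230, 3523, 2537 and 2426 normalized counts in GFP 1, 3, 4, 5 and 6. It was at 4024, 2921, 2441, 2719 and 2490 in Sox11 1, 2, 3, 6 and 7. High and low libraries occurred in either group, and the SD was 17.3% of the mean in controls and 22.2% with Sox11. The log2 fold change was -0.07 (95% interval -0.41 to 0.28, limma adjusted p = 0.836).

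The libraries high in Cntn2 were also those high in oligodendrocyte markers. The 11 markers summed to 137385, 150652, 153925, 92095 and 82321 normalized counts in GFP 1, 3, 4, 5 and 6, and to 172587, 107650, 71703, 97486 and 88607 in Sox11 1, 2, 3, 6 and 7. In each list Sox11 1 was the highest library of all, and GFP 1, 3 and 4 lay above GFP 5 and 6. CA1 pyramidal markers were also higher in GFP 1, 3 and 4 than in GFP 5 and 6, and higher in Sox11 1 and 2 than in Sox11 3, 6 and 7. None of the oligodendrocyte or CA1 markers was at 0 in any library. The part of these cells in the Cntn2 level was not tested.

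**Figure D3:**
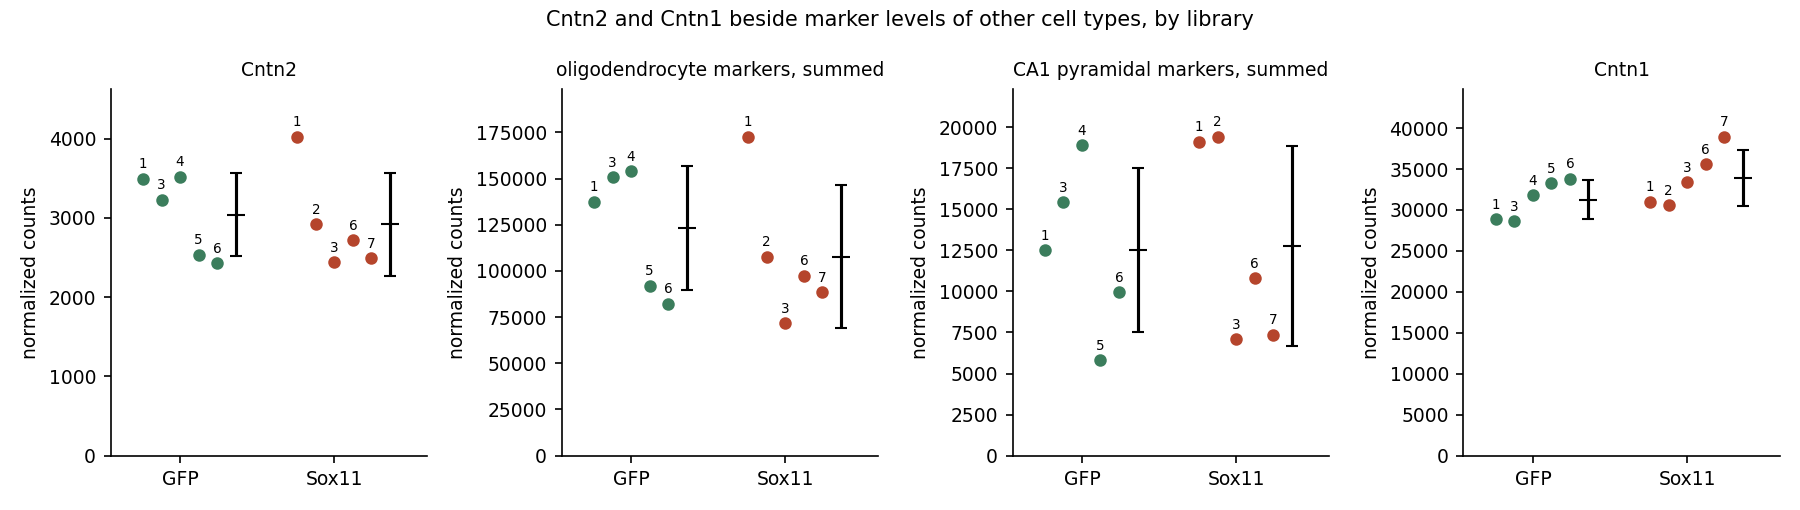
Normalized counts (vertical axes, from 0) of Cntn2, of 11 oligodendrocyte markers summed, of 6 CA1 pyramidal markers summed and of Cntn1 in each library, numbered as in the deposited table, with mean and SD in black (n = 5 each). Sox11 1 is the highest library for Cntn2 (4024) and for the oligodendrocyte sum (172587), while in Cntn1 the libraries numbered 4 to 7 lie above those numbered 1 to 3 of their group.

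Of 7 Caspr genes 3 fell, none rose and 4 did not pass, where 9.36% of all genes tested fell. This list was chosen with earlier results of these data known. Cntnap1, which encodes Caspr, the partner of Cntn1 at the paranode, was at 13386, 12891, 14525, 16842 and 16551 normalized counts in GFP 1, 3, 4, 5 and 6 and at 10511, 10144, 10820, 10195 and 9012 in Sox11 1, 2, 3, 6 and 7. The groups did not overlap. Cntnap1 fell by 0.54 on the log2 scale (SE 0.08, limma adjusted p = 0.00115) and kept its call in all 21 alternatives. The ratio of Cntnap1 to Cntn1 was 0.451 to 0.507 in controls and 0.231 to 0.339 with Sox11, a description chosen after the values were seen.

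Cntnap2, which encodes Caspr2, the partner of Cntn2 beside potassium channels, fell from 6120 ± 790 to 4390 ± 839 normalized counts (SD, n = 5 each), with a log2 difference of -0.49 (SE 0.13, limma adjusted p = 0.0205). It lost its call without Sox11 3 (adjusted p = 0.0524), and Sox11 1 at 5767 lay within the GFP range of 5246 to 7366. Cntnap5c fell by 0.35 (SE 0.10, limma adjusted p = 0.0306), and no longer passed without any 1 of GFP libraries 4, 5 and 6 and Sox11 libraries 1, 2 and 6 (adjusted p from 0.0541 to 0.0717). Within the libraries numbered 1 to 3 neither passed, with log2 fold changes of -0.36 for Cntnap2 (adjusted p = 0.206) and -0.11 for Cntnap5c (adjusted p = 0.519). Within those numbered 4 to 7 both passed, at -0.68 and -0.53. Cntnap3, Cntnap4, Cntnap5a and Cntnap5b did not pass. Of the 31-base words of Cntnap5c 90.1% were found in no other gene's transcripts, the lowest share of the 7 Caspr genes, so its value is less certain.

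Inside the membrane, 1 of 11 genes of the ankyrin, spectrin and ezrin groups fell and none rose, near the 9.36% of all genes tested that fell. This was Sptb, the beta spectrin first known from red blood cells, from 19285 ± 1813 to 15517 ± 1230 normalized counts (SD, n = 5 each), by 0.31 on the log2 scale (SE 0.07, limma adjusted p = 0.0126), a call lost within the libraries numbered 4 to 7. Ank2 and Ank3, the ankyrins that L1 family tails bind, had log2 fold changes of 0.03 and 0.11 with 95% intervals of -0.15 to 0.21 and -0.09 to 0.30. The protease genes Adam10, Adam17 and Bace1, whose products shed L1 family ectodomains, did not pass. Of Bace1's exonic bases 32.5% are shared with opposite-strand genes, so its value is uncertain.

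Of 13 genes for membrane partners and signalling 1 rose, Fyn, and 1 fell. The latter was Aplp2, a relative of the amyloid precursor protein, of the family that contactins bind. It fell by 0.15 on the log2 scale (SE 0.05, limma adjusted p = 0.0441), and the call was lost without each library but Sox11 3 (adjusted p of 0.0530 to 0.0964). The call of Aplp2 was also lost with no filter on low values, with TMM scaling, in edgeR and within either division of the libraries by number. Of 7 matrix and secreted ligands 2 rose, Ncan and Bcan, and none fell. Tnr, the tenascin that contactin-1 binds, was at 18108 ± 1108 and 19080 ± 2145 normalized counts (SD, n = 5 each) and did not pass. Over all 46 partner genes 4 rose, 5 fell and 37 did not pass, close to the 9.65% and 9.36% of all genes tested.

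**Figure D4:**
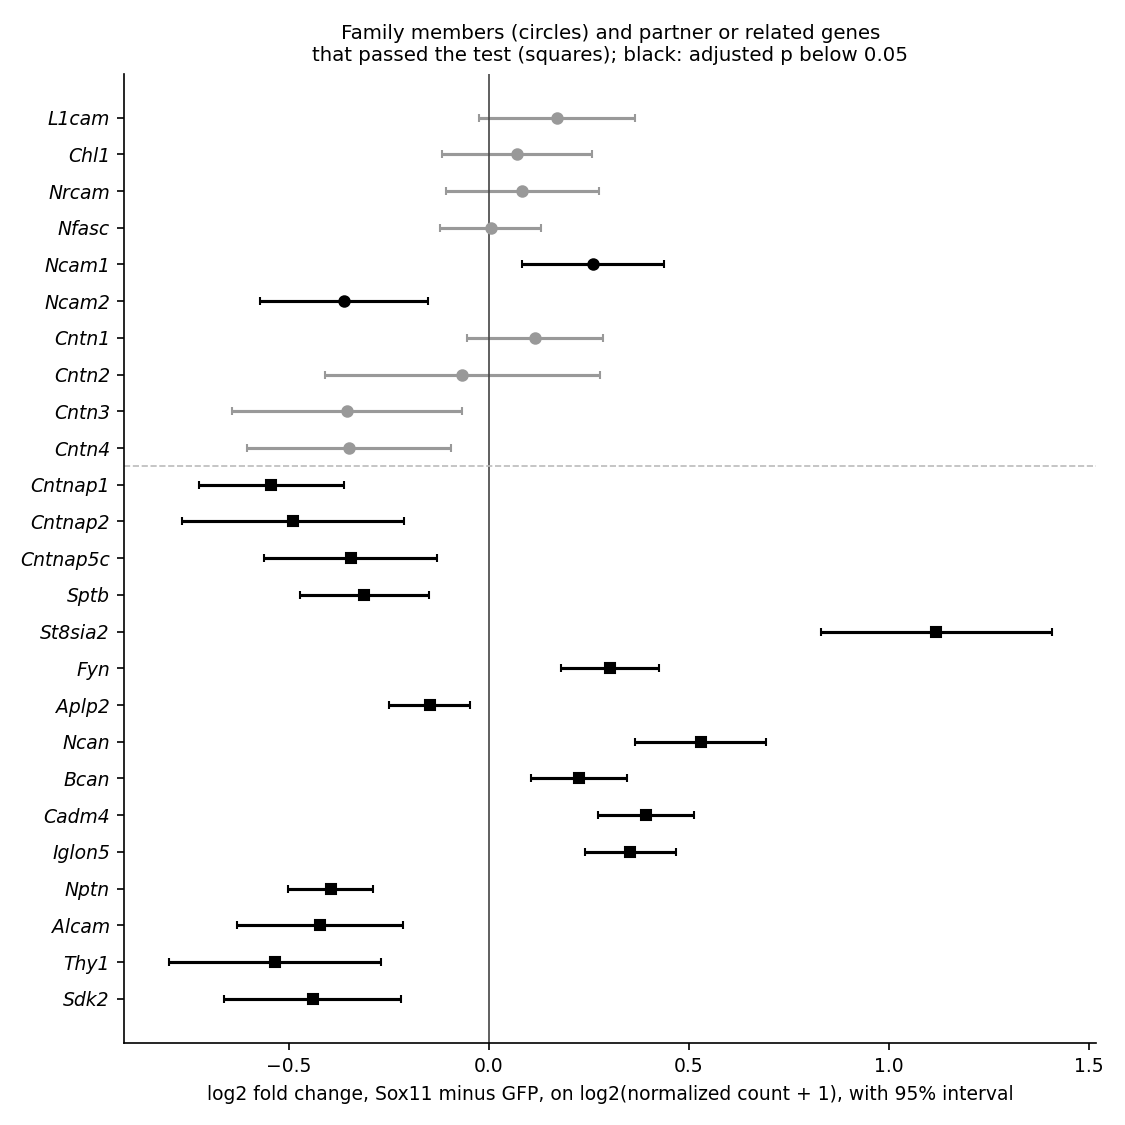
Log2 fold change, Sox11 minus GFP, on log2(normalized count + 1) (horizontal axis) with 95% intervals, for the 10 family members (circles) and the partner and related genes named by rule (squares), with adjusted p below 0.05 in black and the rest in grey. Ncam1 at 0.26 and Ncam2 at -0.36 lie on opposite sides of 0, the 4 L1 family intervals include 0, and St8sia2 at 1.12 is the farthest to the right.

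Other adhesion molecules of the immunoglobulin superfamily in neurons were compared with the 10 genes. Of 24 such genes, a list chosen with earlier results of these data known, 2 rose, 5 fell and 17 did not pass. Of all genes tested 9.65% rose and 9.36% fell. Cadm4, a synaptic and glial cell adhesion molecule, rose by 0.39 on the log2 scale (SE 0.05), and Iglon5, of the lipid-anchored IgLON group, rose by 0.35 (SE 0.05). Nptn, neuroplastin, fell by 0.40 (SE 0.05), and Thy1, the lipid-anchored protein of mature neurons, by 0.54 (SE 0.12). Alcam and Sdk2, which serve in axon bundling and in layer-specific synapses, fell by 0.42 (SE 0.10) and 0.44 (SE 0.10). Opcml, an IgLON gene outside the naming rule and named after its values were seen, fell by 0.30 (SE 0.08). Their limma adjusted p-values lay between 0.000370 for Nptn and 0.0216 for Opcml. The groups did not overlap for Cadm4, Iglon5, Nptn, Alcam and Thy1, as for 15.9% of all genes tested. Within the libraries numbered 1 to 3, Cadm4, Iglon5, Alcam and Thy1 did not pass (adjusted p of 0.0518, 0.0585, 0.0702 and 0.237). Sdk2 passed in neither division (0.103 and 0.0577).

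With the group means removed, the genes whose log2 levels followed those of the NCAM genes most closely over the 10 libraries were sought among the 14255 genes that averaged 50 or more normalized counts. For Ncam1 they were Syt16 (Pearson r = 0.99), Pabpc4 (0.99) and D430019H16Rik (0.98). For Ncam2 they were Gm5113 (0.97), 1500004A13Rik (0.96) and Rps6kc1 (0.96). These are the highest of many coefficients from 10 libraries, in which all genes of a library share its depth and dissection, and they are given as a description. Of these 6 genes D430019H16Rik passed the test between groups, with a log2 fold change of 0.50.

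**Figure D5:**
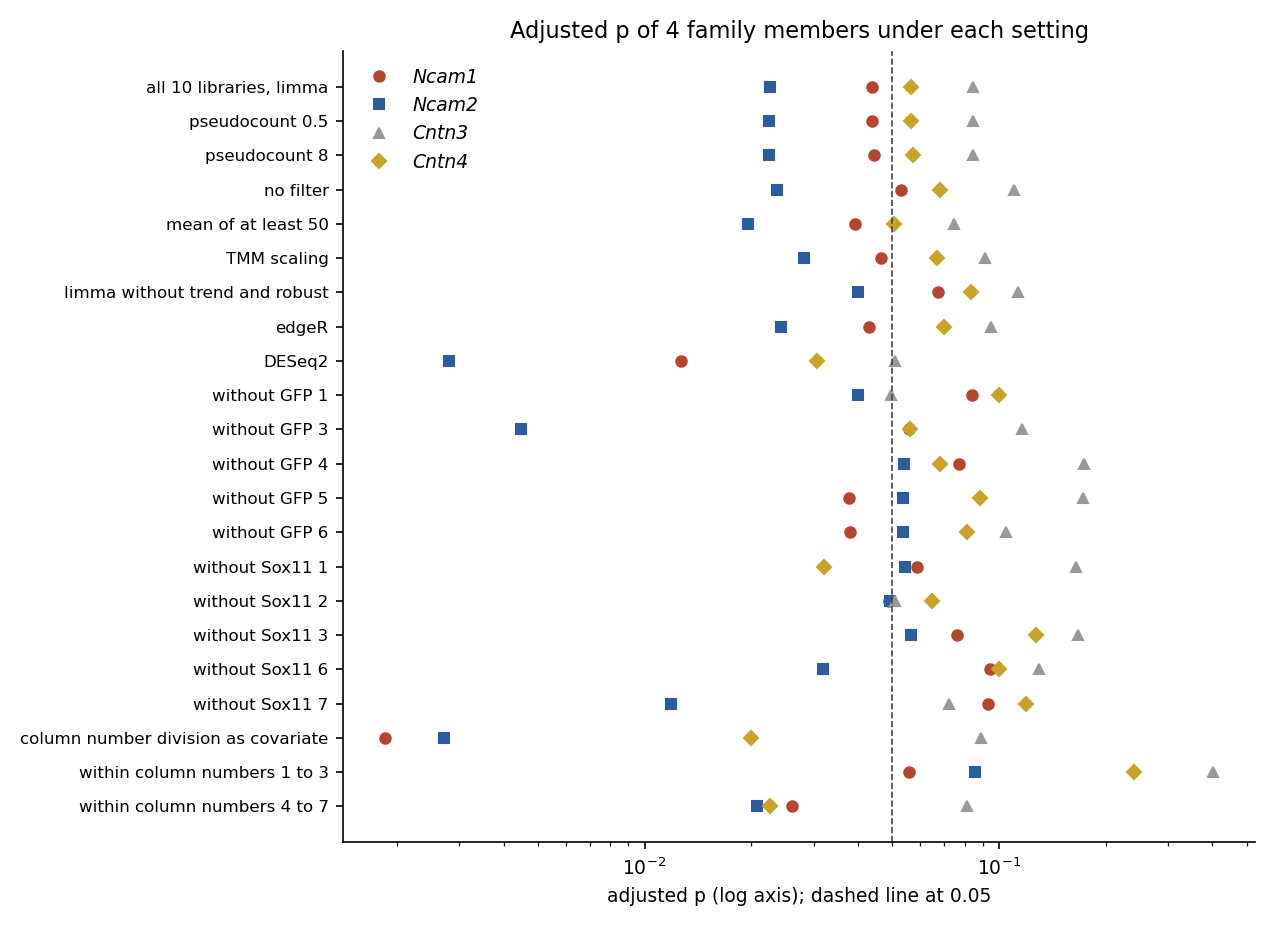
Adjusted p (horizontal log axis, dashed line at 0.05) of Ncam1, Ncam2, Cntn3 and Cntn4 with all 10 libraries in limma and under each of 21 other settings. Ncam1 and Ncam2 cross the line when single libraries are left out, reaching 0.0944 and 0.0563. Cntn4 falls below it in 4 of the 21 settings, among them without Sox11 1 (0.0322) and in DESeq2 (0.0306).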

How the data were processed

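Poly(A)-selected, strand-marked RNA libraries were made from 5 GFP and 5 Sox11 dentate gyri, per the labels' protocols. Listed in the submitters' processing notes are STAR 2.5.2a, featureCounts 1.5.1, DESeq2 1.12.3 and GRCm38. Neither annotation release nor strand setting is stated in the sources used here. What the authors deposited is a signal, normalized counts: each library's reads per gene over 1 scaling factor, as the values show. All values above 0 were whole multiples of the value of 1 read within 0.01 reads, so reads were recovered. Columns were assigned to groups by name.

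Genes averaging 10 or more normalized counts were compared as log2(value + 1) by limma 3.58.1 in R 4.3.3 (trend, robust, Benjamini-Hochberg over all genes, threshold 0.05), after testing on simulated data. With 50 genes changed at each fold, it recovered 8% of 1.2-fold and 62% of 1.5-fold changes. Fewer genes changed there than in these data, so the shares need not carry over. A gene that did not pass may still differ by such a fold. Names, coordinates and exon lengths came from GENCODE M21 (GRCm38), with 48144 identifiers matched. Alternatives were pseudocounts of 0.5 and 8, no filter, a mean of at least 50, TMM scaling, limma without trend and robust, edgeR 4.0.16 and DESeq2 1.42.0 on recovered reads, each library left out, and column numbers 1 to 3 against 4 to 7 as a covariate or as separate fits. Named genes were Sox11, the 10 members, up to 4 partner or related genes of lowest p per list and direction, and the 3 genes most like each changed member. Listed genes named though they did not pass were chosen after their values were seen. The members, lists, division and rules were chosen with earlier results of these data known. Depth limits precision, and reads without molecular identifiers are not independent molecules.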

Additional observations from a re-analysis of the deposited data

Results flagged for a closer look

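In a group of 5 libraries, a highest or lowest value set off from its nearest neighbour by more of the group's range than Dixon's 95% critical value was taken as far from the others, which chance gives in about 1 in 20 groups. Of 52 groups examined (26 genes, GFP and Sox11), 5 had such a library. Cntn4 was at 1281 normalized counts in GFP 1, against 903 to 965 in the other GFP libraries. Sox11 itself was at 1634 normalized counts in GFP 5, against 1364 to 1399 in the other GFP libraries, and at 20434 in Sox11 3, against 9803 to 11591 in the other Sox11 libraries. Sptb was at 17628 normalized counts in Sox11 6, against 14451 to 15337. Aplp2 was at 31650 in GFP 3, the library rich in choroid plexus RNA, against 28427 to 29155.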

How the results depend on the processing

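The count of all genes changed stayed within 1.5 times its value in every alternative but 1, while the count of family members, at 2, often did not. In libraries 1 to 3 alone (2 GFP, 3 Sox11), 969 genes changed in place of 3234, and 0 of the 10 family members, 5 of the partner genes in place of 9 and 1 of the other immunoglobulin adhesion genes in place of 7. Family members changed numbered 1 with no filter, 1 in limma without trend and robust (Ncam1 lost its call in both), and 4 with the column number division as a covariate (Ncam1, Ncam2, Cntn1 and Cntn4), in place of 2, and from 0 (without GFP 4 or Sox11 3) to 2 with single libraries left out. Other immunoglobulin adhesion genes changed numbered 11 in DESeq2 and 12 with the covariate. The cause of these differences was not tested. Nfasc turned from 0.00 on the log2 scale to negative without GFP 1, GFP 6, Sox11 1 or Sox11 6 (from -0.0322 to 0.0269 over the 10 libraries left out), to -0.0077 within the libraries numbered 4 to 7, and L1cam from 0.17 to -0.0038 there, none with a call. Of 546 values for single named genes, 486 kept direction and side of the threshold, 48 lost their call, 6 gained a call (Cntn1, Cntn3 and Cntn4) and the other 6, those of Nfasc and L1cam, turned in sign without a call. No paired analysis was possible because the table's columns do not carry the replicate numbers of the sample titles. Nor do the sources used here state that GFP and Sox11 mice with the same replicate number were a pair. The rarest members, Cntn3 and Cntn4, had the widest intervals after Cntn2.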
